A study of Mus musculus with 11 samples.

Results

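The comparison is of 2 thiazolidinediones given at the same dose, troglitazone and pioglitazone at 20 µM, in mouse 3T3-L1 cells treated for 24 h. Its members are 5 of the 11 arrays of the series, 3 with troglitazone (replicates 1, 2 and 4) and 2 with pioglitazone (replicates 1 and 2), chosen by their labels and not by any measured value. It is the only pair of drugs in the series that shares a dose, so 1 drug pair was compared. Total RNA of each sample was hybridised to a one-colour oligonucleotide array, and all 12422 probe sets that are not controls were considered. The other groups are vehicle (0.1% DMSO for 24 h, 3 arrays) and rosiglitazone (1 µM for 24 h, 3 arrays), which enter the estimate of the spread between arrays. The titles place replicates 1 and 2 of every group in a first set of 8 arrays and replicate 4 of vehicle, rosiglitazone and troglitazone in a second set of 3, which holds no pioglitazone. 3T3-L1 cells are mouse fibroblasts that hormones can turn into fat cells, and the labels state neither whether these cells had been differentiated nor whether the samples came from separate cultures. The p-values therefore measure the spread between these samples, which may be technical.

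Thiazolidinediones are agonists of PPARγ, a nuclear receptor that pairs with RXR on DNA and drives the genes of fat storage, fatty acid handling and lipid droplets in adipocytes. Both drugs share the thiazolidinedione head group that contacts the receptor. The tail of the troglitazone molecule ends in the chroman group of vitamin E, and that of pioglitazone ends in an ethyl-substituted pyridine.

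Markers of adipocytes were bright on all 5 arrays: the summed signal of 12 of them was 134767 and 147713 on the pioglitazone arrays (replicates 1 and 2) and 117850.0, 110901 and 140998 on the troglitazone arrays (replicates 1, 2 and 4). This order of replicates is kept for all signals given below. Pioglitazone replicate 2 had a 3' to 5' signal ratio of the beta-actin control, a sign of RNA quality, of 4.86, against 1.91 on pioglitazone replicate 1 and 2.04, 1.79 and 3.79 with troglitazone. Log2 signals of the pioglitazone arrays correlated at 0.8819 with each other, those of the troglitazone arrays at 0.899 to 0.9037, and those of unlike drugs at 0.8803 to 0.917, so arrays of one drug were no more alike than arrays of different drugs. In whole cultures, fewer cells of a kind and less RNA per cell cannot be told apart.

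Between the drugs 3 genes passed the test. Ero1a, the oxidase that keeps disulphide bonds forming in the endoplasmic reticulum, and Mt2, a metallothionein that binds zinc and copper, were higher with troglitazone, by 2.64-fold and 2.17-fold. Pck1, the enzyme that makes the glycerol backbone of triglyceride in fat cells from pyruvate carbon, was 3.88-fold lower with troglitazone than with pioglitazone. They account for 4 of the 11739 probe sets tested (0.0341%), 3 higher and 1 lower, at a limma adjusted p under 0.05.

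The brighter of the Ero1a probe sets had signals of 11649 and 10508 with pioglitazone and 25194, 32555 and 27598 with troglitazone. The vehicle arrays (replicates 1, 2 and 4) lay at 12009, 10401 and 8627. All 3 troglitazone arrays were above both pioglitazone arrays and above all 3 vehicle arrays. The log2 difference between the drugs was 1.40 ± 0.16 (SE, 3 against 2 arrays, limma adjusted p = 0.00148), and 1.37 within the first set alone. The dimmer Ero1a probe set stood at 4408 and 2828 with pioglitazone and at 12821, 21426 and 7839 with troglitazone, again without overlap. Its difference was 2.31 ± 0.23 (adjusted p = 0.00059), larger than that of the brighter one although both pointed the same way.

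Mt2 had signals of 8343 and 8172 with pioglitazone, close to the vehicle arrays at 7663, 7439 and 9093. With troglitazone they were 15802, 20830.3 and 23111, above every pioglitazone and vehicle array. The log2 difference was 1.12 ± 0.15 (adjusted p = 0.00851), and 1.14 in the first set alone.

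Pck1 ran the other way. Its signals were 6331 and 6603 with pioglitazone and 1696, 1914 and 1356 with troglitazone, while the vehicle arrays lay at 1718, 1016 and 1988. The troglitazone arrays lay within the range of the vehicle arrays, and both pioglitazone arrays lay far above them. The log2 difference between the drugs was -1.96 ± 0.26 (adjusted p = 0.00851), and -1.84 in the first set. With rosiglitazone, at its lower dose of 1 µM, Pck1 signals were 3746, 4247 and 3013.

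Leaving out pioglitazone replicate 1 took the brighter Ero1a probe set to an adjusted p of 0.0542 and both Mt2 and Pck1 to 0.236, and leaving out pioglitazone replicate 2, the array with the high beta-actin ratio, took Mt2 to 0.0694 and Pck1 to 0.0872. Mt2 also missed the threshold without troglitazone replicate 2 (0.118) or 4 (0.0521) or rosiglitazone replicate 1 (0.0612), and Pck1 without troglitazone replicate 1 (0.101) or 4 (0.0521) or rosiglitazone replicate 1 (0.0612). The differences themselves moved little, over 1.30 to 1.53 for Ero1a, 0.98 to 1.23 for Mt2 and -2.08 to -1.84 for Pck1 when any one array was left out, while over all alternatives the adjusted p ran over 8.25e-05 to 0.644, 0.00219 to 0.644 and 0.00251 to 0.644. The count of 4 probe sets was 1 without pioglitazone replicate 1, 7 without pioglitazone replicate 2, and 2 without troglitazone replicate 4 or rosiglitazone replicate 1. On the first set alone 0 probe sets passed in limma (629 at an unadjusted p under 0.05), with adjusted p-values of 0.124 for Ero1a, 0.234 for Mt2 and 0.124 for Pck1. A further fit left out pioglitazone replicate 2, which had the highest beta-actin ratio, and rosiglitazone replicate 2. Median correlations with the other arrays were lowest for rosiglitazone replicate 2 (0.8333) and highest for pioglitazone replicate 2 (0.8959). With 1 pioglitazone array left, Ero1a was at 1.33, Mt2 at 1.11 and Pck1 at -1.94. With the beta-actin ratio as a covariate Ero1a stood at 1.32 (adjusted p = 0.0448), Mt2 at 1.07 (0.0666) and Pck1 at -1.98 (0.0666).

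**Figure D1:**
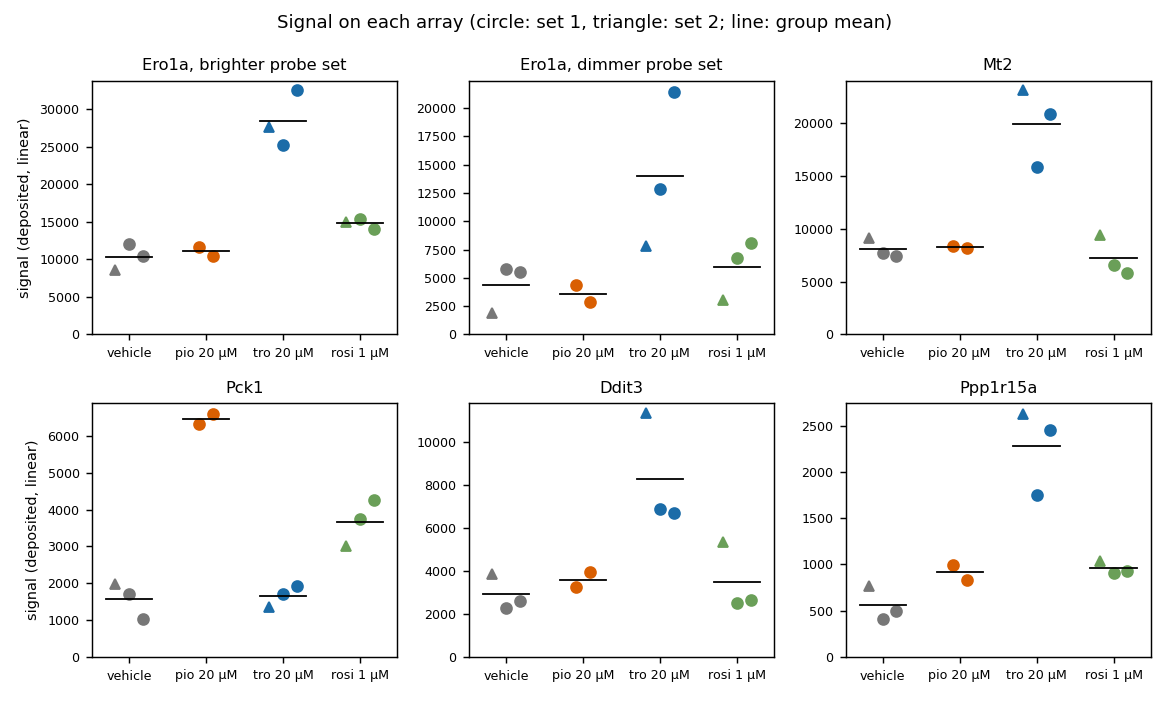
Deposited signal (linear scale) of 6 probe sets on each of the 11 arrays, by group, with circles for the first set, triangles for the second and a line at the group mean. Troglitazone arrays lie above all pioglitazone arrays for both Ero1a probe sets, Mt2, Ddit3 and Ppp1r15a, and below them for Pck1.

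The 250 bases before the start of these 3 genes are shown because they are the genes that told the drugs apart. The sequences are those of RefSeq on GRCm38.p6, read 5′ to 3′ on the gene's strand, at chr14:45318573-45318822 (minus strand), chr8:94172368-94172617 (plus strand) and chr2:173152823-173153072 (plus strand). Capitals mark matches, on either strand, to short patterns. They are a loose form of the metal response element core (TGCNCNC, N being any base) and the hypoxia response element core (ACGTG). The last is a short site of the cyclic AMP response element (ACGTCA).
Ero1a: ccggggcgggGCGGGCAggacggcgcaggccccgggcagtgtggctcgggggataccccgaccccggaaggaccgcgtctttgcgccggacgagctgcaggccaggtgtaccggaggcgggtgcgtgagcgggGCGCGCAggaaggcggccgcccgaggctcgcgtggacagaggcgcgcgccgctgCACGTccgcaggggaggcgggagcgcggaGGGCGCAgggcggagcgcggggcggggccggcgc
Mt2: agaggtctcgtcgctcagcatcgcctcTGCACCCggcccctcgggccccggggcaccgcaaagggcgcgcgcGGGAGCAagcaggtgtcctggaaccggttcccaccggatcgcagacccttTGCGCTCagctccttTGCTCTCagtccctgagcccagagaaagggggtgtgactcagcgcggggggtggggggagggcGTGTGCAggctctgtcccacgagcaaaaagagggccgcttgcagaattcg
Pck1: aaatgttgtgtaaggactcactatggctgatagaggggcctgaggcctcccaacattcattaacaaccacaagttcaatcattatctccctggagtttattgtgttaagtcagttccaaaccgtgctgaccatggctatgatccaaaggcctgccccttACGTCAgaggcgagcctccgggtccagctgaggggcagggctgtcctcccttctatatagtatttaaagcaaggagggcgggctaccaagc
The Mt2 window held 5 matches to the loose metal pattern, and the Ero1a window held 3 of them and 1 match to the hypoxia core. The metal response element is the binding site of the zinc-sensing factor MTF1, but a match to the loose pattern need not be one. The Pck1 window held 1 match to the cyclic AMP site, 91 bases before the start, and none to the others. Of 32851 promoter windows of this length, 44.4% held the loose metal pattern, 16.6% the hypoxia core and 6.47% the cyclic AMP site. The first of these motifs is thus common. The motifs were chosen after the 3 genes were known, and a match describes the letters only.

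Single genes could be resolved only where the difference was large. The 95% interval of a log2 difference reached a median of 1.04 to each side, and it lay within 1 of 0 on both sides for 3250 probe sets (27.7%) and within 0.5 for 271 (2.31%). Unadjusted p-values were under 0.05 for 745 probe sets, 374 higher and 371 lower, where 587 would be reached by chance alone. By gene, 3.47% of 7962 were higher and 3.32% lower at that threshold, the background for the counts of list members below. In the first set 17.9% of genes did not overlap upwards and 16.8% downwards. For every gene described from here on except Ero1a, Mt2 and Pck1, the difference between the drugs did not pass after adjustment over all probe sets, and the values are given as measured. Signals are given for pioglitazone and then troglitazone, and a value with ± is the log2 difference (troglitazone minus pioglitazone) with its standard error.

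**Figure D2:**
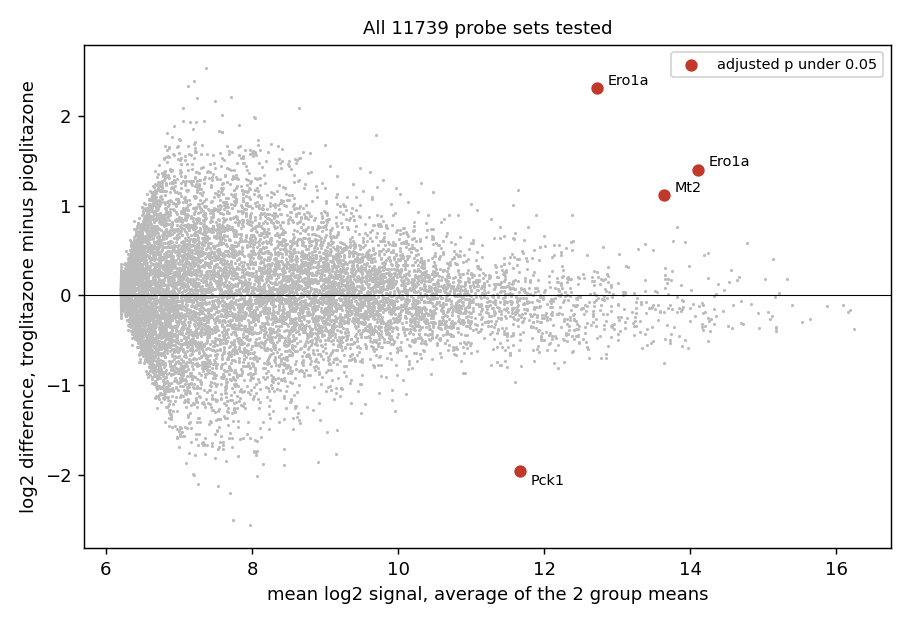
Log2 difference (troglitazone minus pioglitazone) of each of the 11739 probe sets against its mean log2 signal, with the 4 that passed in red. Ero1a (2 probe sets) and Mt2 stand above and Pck1 below a cloud that widens towards dim probe sets.

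Most genes of the integrated stress response had higher signals with troglitazone, although none passed the test. In this pathway kinases that sense stress phosphorylate the initiation factor eIF2α, the transcription factor ATF4 is then made, and ATF4 induces a set of further genes. Of 15 measured genes 13 had a positive difference and 2 a negative one, with a median of 0.53 against 0.0337 over all 7962 genes. At an unadjusted p under 0.05, 6 were higher and 0 lower in limma (3.47% and 3.32% of all genes), and 0 passed after adjustment. On the arrays of the first set 7 did not overlap upwards and 1 downwards, where 17.9% and 16.8% of all genes did so.

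Atf4 itself had signals of 7478 and 8704 with pioglitazone and 11491, 11651 and 14025 with troglitazone, every troglitazone array being above both pioglitazone arrays (0.52 ± 0.13). Ddit3, the transcription factor CHOP that acts later in the response, stood at 3231 and 3941 and at 6869.5, 6685 and 11342 (0.90 ± 0.16, adjusted p = 0.146). Its signals with troglitazone lay above all those with pioglitazone, and the set 2 array was the highest. Ppp1r15a, the phosphatase subunit GADD34 that removes the phosphate from eIF2α, was at 998 and 833 against 1746, 2456 and 2628 (1.16 ± 0.26, adjusted p = 0.257). Trib3, a pseudokinase induced by CHOP, was at 4089 and 4169 against 6208, 6423 and 8880.0 (0.61 ± 0.16). All 4 genes had troglitazone and pioglitazone arrays that did not overlap. Atf3, a transcription factor of the same response, did overlap, with 690.4 and 479 against 678, 893 and 842. Its 95% interval was -0.21 to 1.35, and its difference of 0.57 became 0.31 without pioglitazone replicate 2. A dimmer Atf3 probe set was at -0.58 and also overlapped. The median of the list was 0.48 without pioglitazone replicate 2, and it ranged over 0.41 to 0.55 when any one array was left out. With quantile normalisation Ddit3 passed (log2 1.01, adjusted p = 0.0397; range 0.0397 to 0.93 over the alternatives).

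ATF4 also drives amino acid supply, for which the difference from the stress genes was not tested. Asns, asparagine synthetase and a classical ATF4 target, had signals of 8528 and 7307 with pioglitazone and 7219, 9393 and 7338 with troglitazone. The ranges overlapped, and the difference of 0.0212 had an interval of -0.31 to 0.35. The 29 measured genes of amino acid synthesis, transport and transfer RNA charging had a median of 0.0847. Where 3.47% of all genes were higher and 3.32% lower, 2 were higher and 0 lower at an unadjusted p under 0.05. These were Slc6a9, a glycine transporter (1.14), and Psph, the last enzyme of serine synthesis (0.57), both with non-overlapping arrays. The list median was 0.31 without pioglitazone replicate 2 and 0.18 on the first set alone, and Slc6a9 was at 0.58 without pioglitazone replicate 1.

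In the protein folding machinery of the endoplasmic reticulum Ero1a was the only gene that passed, which does not show that the others did not differ. Of 22 measured genes 15 were positive and 7 negative, with a median of 0.23, and Ero1a was the only one with an unadjusted p under 0.05. Hspa5, the chaperone BiP, had signals of 2218 and 4242 with pioglitazone and 3764, 5058 and 6682 with troglitazone. The pioglitazone arrays lay further apart than the estimated difference between the drugs of 0.54, and the interval was -0.00941 to 1.10. Without pioglitazone replicate 1 the Hspa5 difference was 0.0766 and the median of the list -0.0543, against 1.01 and 0.54 without replicate 2. Canx, the lectin chaperone calnexin, was at 0.82, and P4hb, a disulphide isomerase that ERO1 reoxidises, at -0.64 (-0.25 without troglitazone replicate 2).

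Among 10 genes of metallothioneins and zinc handling, Mt1 was the other gene with an unadjusted p under 0.05. Mt1 signals were 26105 and 19232 with pioglitazone and 34327, 36411 and 34166 with troglitazone, without overlap (0.59 ± 0.16, adjusted p = 0.338). The Mt1 difference was 0.37 without pioglitazone replicate 2 and 0.36 with the beta-actin covariate. The remaining members, which include zinc transporters and the factor Mtf1, had no unadjusted p under 0.05, and the median of the list was 0.0144, turning with the array left out (-0.14 to 0.20). Mt2 is also a glucocorticoid-responsive gene, and of 15 such genes Mt2 and Cebpd were the members with an unadjusted p under 0.05.

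Nearly all genes of glycolysis had higher signals with troglitazone, although none passed. Of 16 measured genes 15 were positive and 1 negative (Ldhb), and the median was 0.44. At an unadjusted p under 0.05, 6 were higher and 0 lower (3.47% and 3.32% of all genes). In the first set 11 of the 16 had troglitazone arrays above both pioglitazone arrays and 0 below (17.9% and 16.8% of all genes). After adjustment in limma 0 of the 16 passed. Slc2a1, the glucose transporter GLUT1 that brings in the substrate, had signals of 674 and 1275 and 1285, 1784 and 1604 (0.82 ± 0.37). Its pioglitazone arrays were far apart and pioglitazone replicate 2 lay just under the lowest troglitazone array. Pfkp, a phosphofructokinase of the committed step, was at 712 and 902 against 1545, 1259 and 1621 (0.76 ± 0.27), and its dimmer probe set pointed the same way. Pgk1, phosphoglycerate kinase, was at 11545 and 10913 against 15715, 18358 and 17704 (0.61 ± 0.18). Pgam1, the mutase that follows it, was at 7177 and 10339 against 11946, 13201 and 14289 (0.57 ± 0.17). Pkm, pyruvate kinase, was at 13216 and 12745 against 17324, 22499.7 and 17006 (0.60 ± 0.14, adjusted p = 0.278), and a dimmer probe set of Pkm overlapped between the drugs. For each of these 5 genes no array of one drug crossed those of the other. Slc2a1 was at 0.36 and 1.28 and Pgam1 at 0.31 and 0.83 without pioglitazone replicates 1 and 2 in turn. The list median stayed between 0.32 and 0.54 when any one array was left out.

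**Figure D3:**
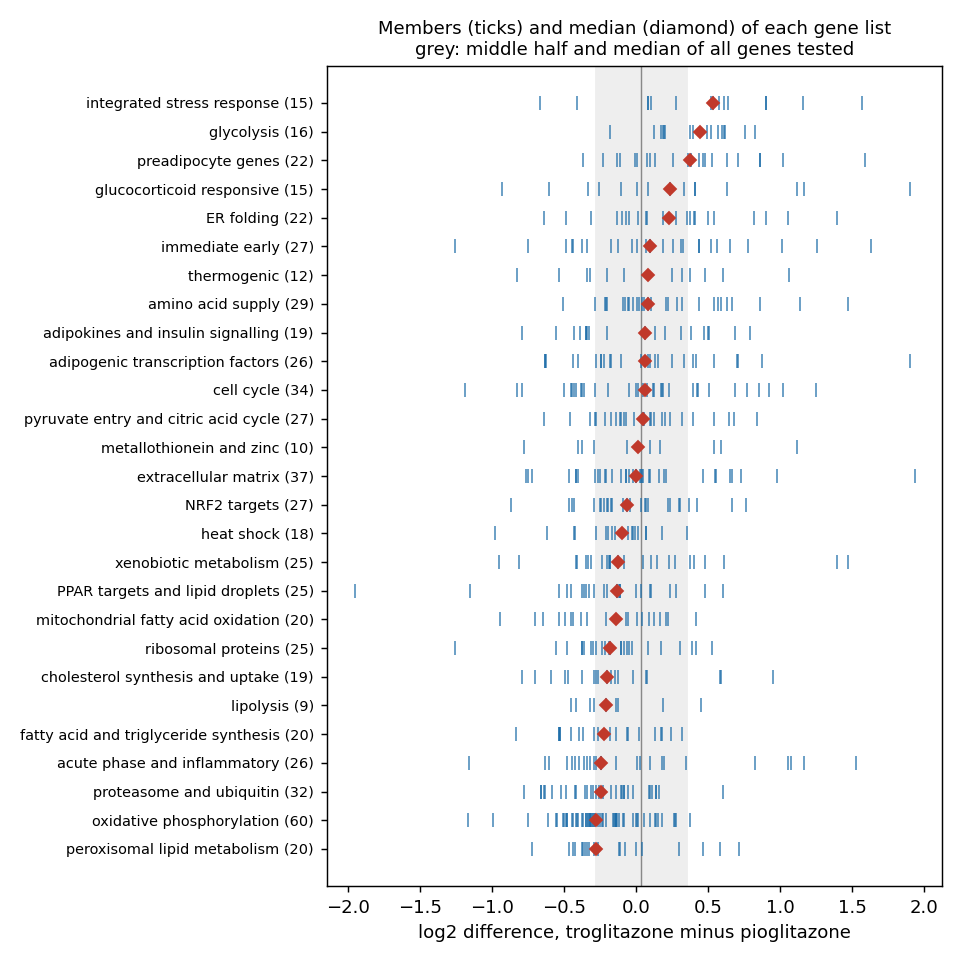
Log2 difference (troglitazone minus pioglitazone) of each measured gene (ticks) of 27 gene lists with the list median (diamond) and the number of genes in brackets; the grey band is the interquartile range and the grey line the median of all genes tested. The stress response, glycolysis and preadipocyte medians (0.53, 0.44 and 0.37) lie right of the band, and the peroxisomal and oxidative phosphorylation medians (both -0.28) lie at its left edge.

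The opposite tendency was seen for mitochondrial respiration. Of 60 measured subunits of oxidative phosphorylation 48 were negative and 12 positive, with a median of -0.28. At an unadjusted p under 0.05, 15 were lower and 0 higher (3.32% and 3.47% of all genes). In the first set 23 had both troglitazone arrays below both pioglitazone arrays and 4 above (16.8% and 17.9% of all genes). After adjustment in limma 0 of 60 passed. The summed signal of the subunits was 518941 and 506894 with pioglitazone and 447586, 404952 and 581243 with troglitazone. The first set was thus lower with troglitazone, and the set 2 array, for which there is no pioglitazone array, was the highest of the 5. Ndufa5 of complex I had signals of 16229 and 13894 with pioglitazone and 9986, 8350.5 and 15793 with troglitazone (-0.75 ± 0.15, adjusted p = 0.257; -0.72 in the first set). Uqcr11 of complex III was at 12437 and 12682 against 9159, 8188 and 10911 (-0.55 ± 0.14), and Atp5e of the ATP synthase at 7246 and 5839.7 against 3962, 4654 and 4826 (-0.61 ± 0.16). These last genes did not overlap on any of the 5 arrays. The list median ranged over -0.36 to -0.21 when any one array was left out, was -0.20 with quantile normalisation and shrank to -0.0956 without the set term. The lean was not particular to respiration: of 25 measured ribosomal protein genes 19 were negative (median -0.18). At an unadjusted p under 0.05, 5 of them were lower and 0 higher (3.32% and 3.47% of all genes), and 0 passed. Their summed signal was 352389 and 329008 with pioglitazone and 324866, 266761 and 399277 with troglitazone, the set 2 array again being the highest.

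Mitochondrial fatty acid oxidation divided between genes that were lower and genes near 0. Of 20 measured genes 12 were negative and 8 positive (median -0.14). At an unadjusted p under 0.05, 7 were lower and 0 higher (3.32% and 3.47% of all genes). Cpt2, the carnitine transferase of the inner membrane, had signals of 9834 and 8002 with pioglitazone and 5461, 5940.1 and 7059 with troglitazone (-0.70 ± 0.15, adjusted p = 0.257), with no overlap on the 5 arrays. Cpt1a, its partner on the outer membrane and the gate of the pathway, was at 1027 and 721 against 520.5, 375 and 621 (-0.95 ± 0.35). Acaa2, the thiolase that closes the cycle, was at 15996 and 19483 against 12844, 12222 and 16529 (-0.49 ± 0.14), where the set 2 array overlapped. Etfb, which passes electrons on to the respiratory chain, was at -0.65 (-0.92 and -0.38 without pioglitazone replicates 1 and 2 in turn), and Hadhb, Acadm, Acadl and Echs1 of the same pathway showed no unadjusted p under 0.05. The list median was -0.45 without pioglitazone replicate 1 and -0.0548 without troglitazone replicate 1.

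Peroxisomal lipid metabolism had 15 of 20 genes negative and a median of -0.28. At an unadjusted p under 0.05, 2 were lower and 0 higher (3.32% and 3.47% of all genes). The 2 were Hsd17b4, the bifunctional enzyme of peroxisomal β-oxidation (-0.42), and the thiolase Acaa1a (-0.38). Both overlapped on the set 2 array, and without troglitazone replicate 2 the list median was -0.13 and Acaa1a at -0.24. In the citric acid cycle and pyruvate entry the 27 measured genes were split 14 to 13 (median 0.0489, -0.17 without pioglitazone replicate 1). At an unadjusted p under 0.05, 2 were higher and 3 lower (3.47% and 3.32% of all genes). Pdk1, a kinase that shuts pyruvate dehydrogenase, was at 0.65, and Cs, the citrate synthase, named after its value was seen, at 0.32. The lower ones were Ogdh, Idh3a and Mdh2 of the cycle at -0.46, -0.64 and -0.32. Every troglitazone array was above both pioglitazone arrays for Pdk1 and below them for Ogdh and Mdh2, while Idh3a overlapped on the set 2 array.

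Pck1 was the one PPARγ target that passed between the drugs. Of 25 targets and lipid droplet genes 18 were negative and 7 positive (median -0.14), and Pck1 alone passed. At an unadjusted p under 0.05, 5 were lower and 1 higher (3.32% and 3.47% of all genes). Fabp4, the fatty acid binding protein of adipocytes, had signals of 2981 and 3239 with pioglitazone and 3470.5, 2862 and 2437 with troglitazone, and its interval was -0.37 to 0.37. Angptl4, a secreted inhibitor of lipoprotein lipase, was at 6233 and 5047 against 5431, 5037 and 6030.5, with an interval of -0.46 to 0.23. Both genes overlapped between the drugs, and on these probe sets both intervals exclude a difference of 1 on the log2 scale in either direction. Of the dimmer Angptl4 probe sets, one was at -0.0575 (interval -0.38 to 0.26). Others were at 0.94 (-0.56 to 2.45) and -0.95 (-2.80 to 0.91), which do not exclude it. Pdk4, the other pyruvate dehydrogenase kinase on which PPARs act, was at 2129 and 3363 against 2571, 3365 and 3769, with an interval of -0.57 to 0.76. Plin2, a coat protein of lipid droplets, had an interval of -0.064 to 0.62. The Pdk4 difference was -0.23 and 0.43 and that of Angptl4 0.0403 and -0.26 without pioglitazone replicates 1 and 2 in turn, so neither has a settled direction. The droplet proteins Cidec and Cidea had differences of opposite sign: Cidec was at 27673 and 25620.5 against 22892, 20308 and 23649 (-0.36 ± 0.15) and Cidea at 2327 and 2792 against 3512, 4000.4 and 6208 (0.48 ± 0.19). Neither overlapped on the 5 arrays and neither passed (adjusted p = 0.687 and 0.666). Acaa1b, a peroxisomal thiolase, had an interval of -0.67 to 0.00848 on its bright probe set, and a dimmer one pointed the other way. Lpl, the lipoprotein lipase that frees fatty acids for uptake, had an interval of -0.57 to 0.34, Cd36, a fatty acid transporter, one of -0.94 to 0.67, Slc2a4, the insulin-regulated glucose transporter GLUT4, one of -0.84 to 0.0683, and Scd1, the desaturase of stored fat, one of -0.63 to 0.27. Dimmer Scd1 probe sets were at -0.11 and at -1.21 (interval -2.09 to -0.33), both lower on every troglitazone array, and neither passed. Lpl was at -0.49 and 0.27 and Cd36 at -0.68 and 0.42 without pioglitazone replicates 1 and 2 in turn, so their directions turned with the array left out.

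Pparg itself was at 462 and 511 with pioglitazone and 543, 473 and 738 with troglitazone, far under the vehicle arrays at 1931, 1729 and 2886. The drugs overlapped, and the interval of their difference was -0.48 to 0.56. Cebpa, the partner of PPARγ in adipocyte differentiation, had an interval of -0.50 to 0.14. Cebpd, which acts early in that programme, was higher on every troglitazone array: 26 and 176 with pioglitazone against 386, 444 and 517 with troglitazone and 653, 620.0 and 724 with vehicle. Pioglitazone replicate 1 lay under the floor of 73.7 to which low values were raised, so the difference of 1.90 ± 0.45 (adjusted p = 0.278) depends on that floor, and it was 1.27 without that array.

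Genes of fatty acid and triglyceride synthesis leaned the same way as those of oxidation. Of 20 measured, 14 were negative and 6 positive (median -0.22). At an unadjusted p under 0.05, 4 were lower and 0 higher (3.32% and 3.47% of all genes). Fasn, fatty acid synthase, was at 5601 and 7575 against 4801, 3980.4 and 6692 (-0.53 ± 0.16), with the set 2 array inside the pioglitazone range. Thrsp, a promoter of lipogenesis, was at 3136 and 2976 against 2509, 1861 and 2897 (-0.53 ± 0.19), without overlap. Acly and Gpam, which supply acetyl-CoA and start triglyceride assembly, were at -0.54 and -0.45. Without pioglitazone replicates 1 and 2 in turn, Fasn was at -0.75 and -0.31, Acly at -0.86 and -0.21 and Gpam at -0.25 and -0.66.

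Cholesterol genes were mixed. Npc1, which exports cholesterol from the lysosome, had signals of 1505 and 1444 with pioglitazone and 2958, 2538 and 4405 with troglitazone (0.95 ± 0.21, adjusted p = 0.257), with every troglitazone array higher. Fdft1, squalene synthase and the first step committed to sterols, was at 3747 and 4300.2 against 2707, 2313 and 3056 (-0.79 ± 0.18), with every troglitazone array lower. Idi1, an isomerase upstream of it, was at -0.50. Mvk, mevalonate kinase, was at 0.58 on its bright probe set and at -1.49 on a dimmer one, so its direction cannot be given. Over the 19 measured genes 14 were negative and 5 positive (median -0.20). At an unadjusted p under 0.05, 2 were higher and 2 lower (3.47% and 3.32% of all genes). The median was -0.0931 without pioglitazone replicate 2 and -0.0913 with the beta-actin covariate, and Idi1 was at -0.28 without pioglitazone replicate 1.

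In lipolysis 7 of 9 measured genes were negative (median -0.21), and 2 were lower at an unadjusted p under 0.05 (3.32% of all genes). Lipe, hormone-sensitive lipase, was at 16218 and 15673 against 11636, 11549 and 18255 (-0.45 ± 0.13), the first set being lower and the set 2 array highest. Abhd5, the activator of the triglyceride lipase, was at 5632 and 4323 against 3973, 3402 and 4084 (-0.42 ± 0.16), without overlap. Among adipokines Retn, resistin, was at 2819 and 4593 against 1868, 2194 and 2983 (-0.79 ± 0.22), and Adipoq, adiponectin, at 37098 and 44595 against 35847, 28109 and 37172 (interval -0.67 to -0.0228). Agt, angiotensinogen, was at -0.43, while Nampt was at 0.50 and Lep, leptin, at 0.31. The 19 measured genes of adipokines and insulin signalling were split 10 positive to 9 negative (median 0.0622). At an unadjusted p under 0.05, 1 was higher and 4 lower (3.47% and 3.32% of all genes). The Retn pioglitazone arrays differed widely, and without pioglitazone replicate 2 its difference was -0.44 and that of Adipoq -0.21. Abhd5 was at -0.23 without pioglitazone replicate 1. Over 12 adipocyte markers 10 were negative, with a median of -0.26, and over 22 preadipocyte genes 17 were positive, with a median of 0.37. Among the latter Thy1, a surface marker of fibroblasts, was the only one with an unadjusted p under 0.05, at 119 and 189 against 404, 525 and 458 (1.59 ± 0.48). The summed signal of the preadipocyte genes was 8861 and 9750.3 with pioglitazone and 10474, 11861 and 8875 with troglitazone, which overlap, and its part in the other differences was not tested.

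Only 3 genes passed, so the 15 genes named each way were filled up by smallest unadjusted p from genes whose arrays of the first set did not overlap, and several of them belong to none of the groups above. Higher with troglitazone on all 5 arrays were Gadd45a, a growth arrest gene induced by DNA damage and stress (1138 and 1731 against 2480.4, 3145 and 3489.9, 1.02 ± 0.23), and Mxi1, an antagonist of MYC (1.17). So were Tnip1, an inhibitor of NF-κB signalling (324 and 729.6 against 1219.6, 1307 and 1289.9, 1.38 ± 0.32), and Bsg, the chaperone of the lactate carriers (0.76). Tnip1 with troglitazone was at the level of the vehicle arrays (1433, 1054 and 1371), and its difference was 0.79 without pioglitazone replicate 1. Fam162a, a mitochondrial protein induced by hypoxia, was at 0.90, Retreg2, of the reticulophagy regulator family, at 1.02, Rnf10, a ubiquitin ligase, at 1.18 and Sgce, sarcoglycan epsilon, at 0.90. Fam162a was at 0.55 without pioglitazone replicate 1 and Rnf10 at 0.77 without troglitazone replicate 2. The adjusted p of these 8 genes ran from 0.257 to 0.285.

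Lower with troglitazone on all 5 arrays was Miga2, a protein of mitochondrial fusion and lipid transfer (1519 and 1553 against 594, 701 and 629, -1.28 ± 0.27, adjusted p = 0.257). The calcium-binding proteins S100a1 (-0.81) and S100a13 (-0.75) and Aoc3, a surface amine oxidase of adipocytes (-0.61), were lower in the same way. Other S100a13 probe sets were at -0.86, -0.70 and -0.15, of which the first and last overlapped. Other S100a1 probe sets were at 0.56 and 0.0269, with pioglitazone signals under the floor. Also lower were Polr2l, a small subunit of the RNA polymerases (-0.77), Ptpa, an activator of protein phosphatase 2A (-0.74), Ly6e, a membrane-anchored surface protein (-0.69), and 1810058I24Rik (-0.73). Dbi, the acyl-CoA binding protein (-0.58), and Gatd3a (-0.86) were lower in the first set and overlapped on the set 2 array. Gjb6, a connexin, had 461 and 184 with pioglitazone, and with troglitazone all arrays were under the floor of 73.7 (25.9, 54.8 and 38.5), so its difference of -1.99 is set by the floor and was -1.32 without pioglitazone replicate 1.

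**Figure D4:**
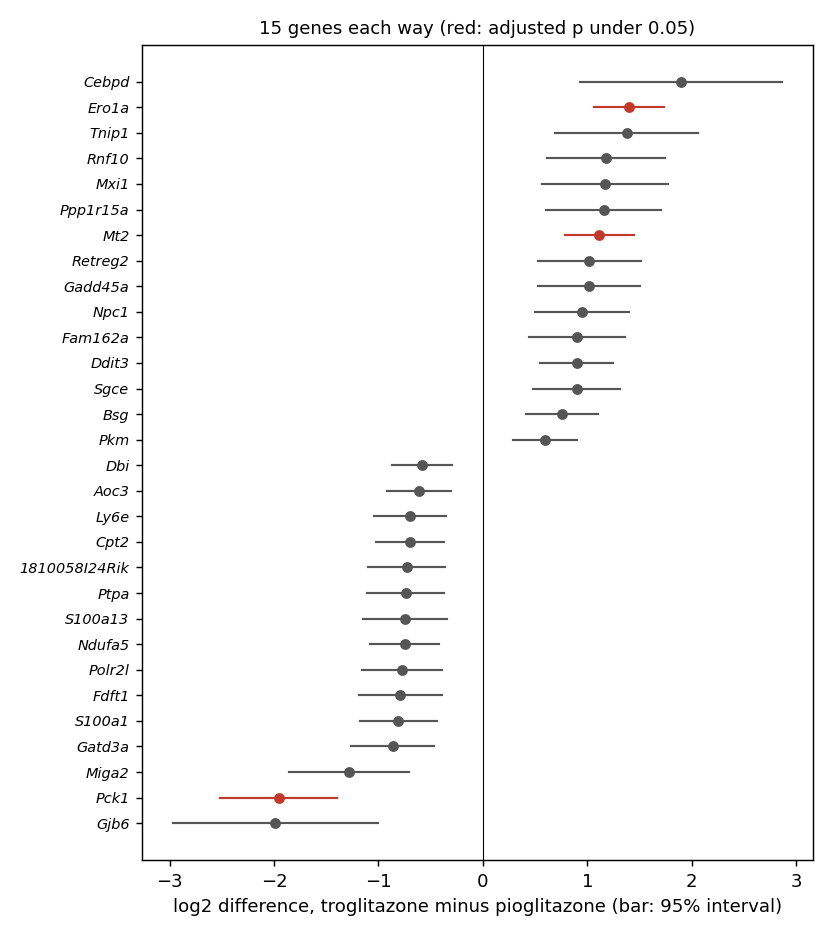
Log2 difference (troglitazone minus pioglitazone) and its 95% interval for the 15 genes named in each direction, with those that passed in red. Beyond those that passed, genes were taken by smallest unadjusted p, so their intervals leave out 0 by that choice.

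The median of the proteasome and ubiquitin genes depended on 1 array. Of 32 measured genes 25 were negative (median -0.24). At an unadjusted p under 0.05, 4 were lower and 0 higher (3.32% and 3.47% of all genes). The summed signal was 66433 and 90136 with pioglitazone and 64679.8, 64151 and 94000.4 with troglitazone. Pioglitazone replicate 2 and the set 2 troglitazone array, which had the highest beta-actin ratios, had the highest sums. Without pioglitazone replicate 2 the median was -0.0243, and without replicate 1 it was -0.45. Psmd7, a subunit of the regulatory particle, was at 2551 and 4657 against 1889, 1974 and 2459, and Psma7 of the core at 3048 and 3477 against 1936, 2103 and 4715. The Psmd7 difference of -0.78 became -0.35 without pioglitazone replicate 2.

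Set against vehicle, the drugs share the same 3 control arrays, so the values are placed side by side without a test between them. Troglitazone differed from vehicle in 156 of 11739 probe sets (1.33%) and pioglitazone in 106 (0.903%). The first count rests on 3 drug arrays and the second on 2, so they do not compare the breadth of the drugs' effects. Ero1a stood at 1.46 with troglitazone and 0.0657 with pioglitazone relative to vehicle (limma adjusted p = 3.05e-05 and 0.959), and Mt2 at 1.29 and 0.18 (6.13e-05 and 0.794). Pck1 stood at 0.11 with troglitazone and 2.07 with pioglitazone (0.975 and 0.000901). Ero1a and Mt2 therefore passed against vehicle with troglitazone and not with pioglitazone, Pck1 did the reverse, and all 3 also passed in the direct comparison of the drugs. Ppp1r15a was at 2.06 and 0.90 and Ddit3 at 1.50 and 0.61. Both of these rose against vehicle with troglitazone (adjusted p = 0.000104 and 3.05e-05) and did not pass with pioglitazone (0.159 and 0.124), although the direct difference between the drugs did not pass either. Cpt2 was at 0.25 with troglitazone and 0.95 with pioglitazone, Acaa2 at 0.56 and 1.05, and Ndufa5 at 0.75 and 1.50. For these 3 mitochondrial genes the estimates against vehicle were positive with both drugs and larger with pioglitazone. The direct difference between the drugs passed for none of them (limma adjusted p = 0.257, 0.442 and 0.257). Cebpd was at -0.58 with troglitazone and at -2.48 with pioglitazone, where it fell (adjusted p = 0.0138).

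Several genes with large differences from vehicle did not pass between the drugs. Pmm1, a phosphomannomutase, was at 2.72 with troglitazone and 2.98 with pioglitazone against vehicle, and the interval of the difference between the drugs was -1.07 to 0.55. Anxa2, a membrane-binding annexin, was at 1.92 and 1.94, with an interval of -0.32 to 0.29. Chchd10, of the mitochondrial intermembrane space, was at 3.17 and 2.63. Its signals were 2914 and 3173 with pioglitazone and 4212, 4957 and 6205 with troglitazone, without overlap, and the interval of 0.0697 to 1.01 reached from near 0 to about a doubling. Cbr3, a carbonyl reductase, had an interval of -0.57 to 0.17, and Hp, the plasma protein haptoglobin, one of -0.95 to 0.0635. A p that misses the threshold does not show that the drugs act alike: for Pmm1 the data allow a difference of more than 1 on the log2 scale in the direction of pioglitazone, for Anxa2 they do not. Without troglitazone replicate 4 the Pmm1 difference was -0.043.

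**Figure D5:**
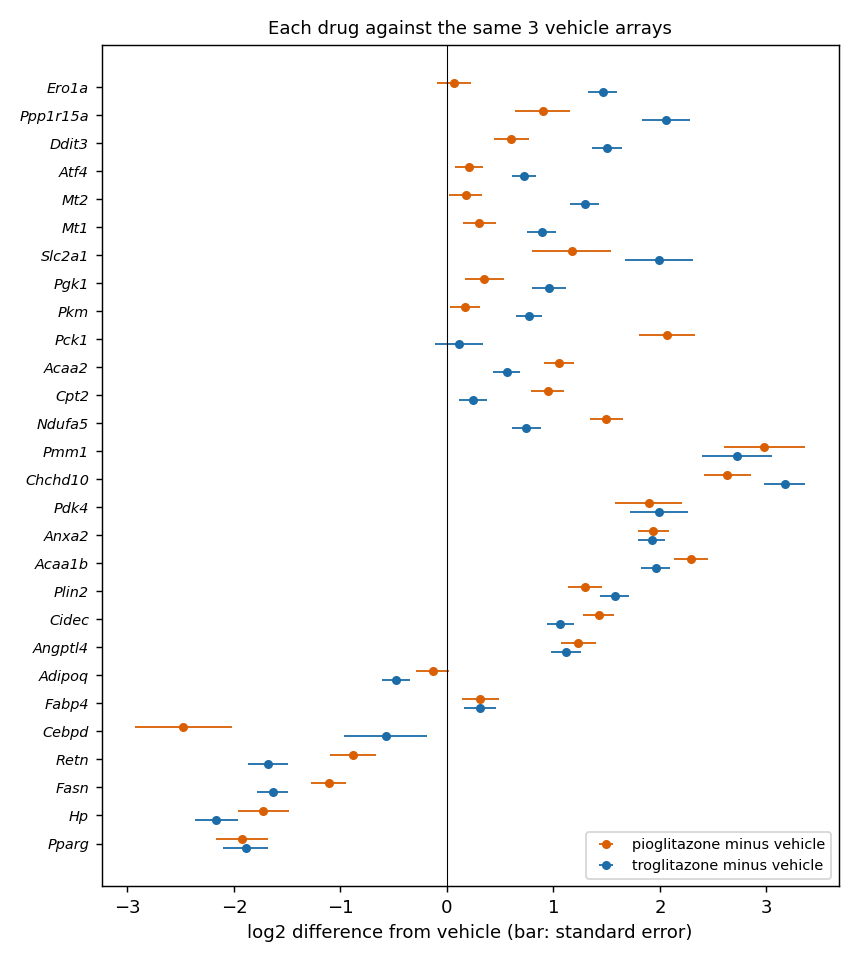
Log2 difference from the same 3 vehicle arrays, with its standard error, for pioglitazone (orange) and troglitazone (blue) in the genes named on the axis. The drugs lie apart for Ero1a, Mt2 and Pck1 and on top of each other for Pparg, Fabp4 and Anxa2.

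Genes of the defence against oxidative stress were near the background of all genes. Of 27 targets of the antioxidant response factor NRF2, 12 were positive and 15 negative (median -0.0598), and 0 passed in limma. At an unadjusted p under 0.05, 0 were higher and 2 lower (3.47% and 3.32% of all genes). Hmox1, haem oxygenase, was at 5157 and 3719.5 with pioglitazone and 3934, 2531 and 5118 with troglitazone, with an interval of -0.90 to 0.40 and a difference that turned to 0.0968 without troglitazone replicate 2. The lower ones were Tkt, transketolase (-0.43), and Txn1, thioredoxin (-0.44), and for both the set 2 troglitazone array was the highest of the 5. Of 18 heat shock genes 13 were negative (median -0.10), and 0 had an unadjusted p under 0.05 or passed in limma. Of 25 genes of xenobiotic metabolism 11 were positive and 14 negative (median -0.13). Near the shares of all genes (3.47% higher and 3.32% lower), 1 was higher and 1 lower at an unadjusted p under 0.05. These were Cyp2f2, a cytochrome P450, at 764 and 709 against 995, 1283 and 929.7 (0.61 ± 0.26), and Ces1d, a carboxylesterase, at 9039 and 7290.2 against 7127, 5628 and 10257 (-0.35 ± 0.16). The xenobiotic median turned to 0.14 without pioglitazone replicate 1, and that of the NRF2 targets to 0.0602 without replicate 2.

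Growth and matrix genes were mixed. Of 34 cell cycle genes 19 were positive. At an unadjusted p under 0.05, 3 were higher and 0 lower (3.47% and 3.32% of all genes). Cdk4, the kinase of the G1 phase, was at 694 and 966 against 1200.4, 1474 and 1923 (0.69 ± 0.24), and Mcm7, of the replicative helicase, at 307 and 510.1 against 804, 672 and 626 (0.85 ± 0.35). Without pioglitazone replicate 1 they were at 0.45 and 0.49. Both were without overlap, and their adjusted p was 0.618 and 0.709. Of 27 immediate early and growth arrest genes 3 were higher (Gadd45a, Ier3 and Btg1) and 1 lower (Egr2) at an unadjusted p under 0.05 (median 0.0965). The shares over all genes were 3.47% and 3.32%. Ier3, a stress-induced survival gene, was at 138 and 272 against 583, 686 and 523 (1.63 ± 0.45), and Btg1, an antiproliferative gene, at 0.57 (0.29 without pioglitazone replicate 1). Egr2, a zinc finger transcription factor, was at 77.7 and 273 against 40.5, 27.2 and 66.9 (-1.26 ± 0.58), with all troglitazone arrays under the floor, and at -0.35 without pioglitazone replicate 2. Among 37 matrix genes Mmp11, a metalloproteinase, was at 1168 and 1349 against 1905, 1903 and 2411 (0.66 ± 0.22). Bgn, the proteoglycan biglycan, was at 0.55, and Col4a1, a basement membrane collagen, at -0.41, and they were at 0.36 without pioglitazone replicate 1 and -0.28 without replicate 2. The matrix list had a median of -0.00238, with 3 higher and 1 lower at an unadjusted p under 0.05 (3.47% and 3.32% of all genes).

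None of the 46 measured markers of macrophages, muscle (smooth or skeletal), bone and cartilage, epithelium and endothelium passed in limma, and 0 had an unadjusted p under 0.05. The 8 macrophage markers were split 4 to 4, with summed signals of 4083 and 2634 with pioglitazone and 2876, 2326 and 1486 with troglitazone. All 5 smooth muscle markers were negative, with sums of 889 and 726 against 731, 398 and 246, and all 7 endothelial markers were positive, with sums of 702 and 666 against 869, 1029 and 368. The sums overlapped between the drugs for these 3 cell types, and the set 2 troglitazone array had the lowest sum of each. Median signals on the 5 arrays were 73 (macrophage), 95.3 (smooth muscle) and 87.4 (endothelial). They lay near the floor of 73.7, so these signs rest on dim probe sets.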

How the data were processed

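One-colour arrays measured RNA in 11 samples of 3T3-L1 cells. The values deposited by the authors are linear signal intensities, 1 per probe set and array. In the deposited table a 2% trimmed mean lies between 500.289 and 500.433 on every array, so the arrays had been scaled to a common mean. The software that made the intensities is not given in the sources used here. Depth does not apply to arrays, and their number limits the precision.

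The 66 control probe sets were set aside. Values below the 25th percentile of the table (73.7) were raised to it and log2 taken, and the 11739 of 12422 probe sets above it on at least 2 arrays were tested. At the floor lay 22.3% of the tested values on the 5 arrays compared. In limma 3.58.1 (R 4.3.3), 1 model with the 4 groups and the set as terms was fitted to all 11 arrays (6 residual degrees of freedom), with a variance trend on intensity, and Benjamini-Hochberg adjustment ran over all probe sets. The model was checked on simulated data.

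Probe sets were named from the platform annotation: 10833 had 1 gene, 396 several and 1193 none, and of several probe sets of a gene the brightest stands for it, which gave 7962 genes. Genes named are those of a panel, up to 4 members of each of 34 gene lists with the smallest p, and the genes that passed with the first set not overlapping, filled up to 15 each way in order of unadjusted p (so nearly all of them by p and not by size). From these the genes of the text were kept after their values were seen. The groups, panel and lists were chosen with earlier results of these data known. Promoters are from RefSeq on GRCm38.p6.

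Alternatives tried were the normalisation, the floor, an added constant, the filter, the set term and fewer arrays. Others were the replicate number as a block, the variance prior and each array left out. Chosen after seeing the data were the beta-actin ratio as a covariate and the omission of 2 arrays. The 2 arrays were pioglitazone replicate 2, with the highest beta-actin ratio, and rosiglitazone replicate 2, with the lowest median correlation with the others.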

Additional observations from a re-analysis of the deposited data

How the results depend on the processing

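The count of 4 probe sets past the threshold became 1 without the set term, and in limma 0 on the first set alone (629 at an unadjusted p under 0.05), 0 on the 5 arrays only (812), 0 on the 4 arrays of the first set only (801) and 0 without the variance trend (657). It was 25 without the 2 arrays that stood apart, none of them among the 4, and 1 to 7 when any one array was left out. Without the filter 4 passed but none of the same. With the replicate number as a block 4 passed, the same 4; the samples share only a number, since the deviations of same-numbered samples correlated at 0.00994. Median centring gave 3, without Mt2, and the beta-actin covariate 3, of which 2 were shared. The differences of Ero1a, Mt2 and Pck1 kept their direction under every alternative, but not all alternatives were separate checks. The replicate block left the differences unchanged. The first set alone and the omission of troglitazone replicate 4 gave the same values (1.37, 1.14 and -1.84). These genes were also picked from the same data. Directions of other differences did turn, among them list medians (ER folding from 0.23 to -0.0543 and xenobiotic metabolism from -0.13 to 0.14, both without pioglitazone replicate 1). Fabp4 became 0.0675 with quantile normalisation, 0.0204 with the first set, 5 or 4 arrays alone, 0.0669 with the beta-actin covariate and 0.065 without the 2 arrays, and -0.11 to 0.0692 with any one array left out. Anxa2 became 0.0681 with quantile normalisation, 0.21 without the set term and 0.0251 with the first set, 5 or 4 arrays (-0.14 to 0.11 with one array left out). Asns became -0.0514 with median centring, -0.11 with the covariate and -0.0911 without the 2 arrays (-0.12 to 0.13). Pparg became -0.036 with median centring (-0.0412 to 0.11), Pmm1 (at -0.26) 0.057 and Cbr3 0.00864 without the set term, and with one array left out Angptl4 ran over -0.26 to 0.0403 Pdk4 over -0.23 to 0.43, Hmox1 over -0.48 to 0.0968, Lpl over -0.49 to 0.27 and Cd36 over -0.68 to 0.42. With the covariate Lpl and Cd36 were 0.25 and 0.37, without the 2 arrays 0.30 and 0.42, and Lpl was 0.0017 with quantile normalisation and 0.0853 without the set term. The causes were not tested. Dim probe sets near the floor limit what can be read from small differences.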
